A study of Mus musculus with 4 samples.

Results

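The genes described here encode the subunits of heterotrimeric G proteins and the regulators of G protein signalling (RGS proteins), measured in primary cell cultures made from mouse cerebral cortex. The members were all probe sets with a single platform gene symbol for a G alpha subunit (Gnai1 to Gnai3, Gnao1, Gnaq, Gna11 to Gna15, Gnal, Gnaz), a G beta subunit (Gnb1 to Gnb5), a G gamma subunit (any Gng symbol) or a numbered RGS protein. The Gs alpha gene Gnas was not among them. This gave 113 probe sets for 47 genes, of 45037 probe sets and 18193 named genes on the array: 12 alpha, 5 beta, 11 gamma and 19 RGS genes.

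The neuron cultures were made from the cortex of C57BL6 fetuses of embryonic day 16 and kept for 7 days in vitro with 1% fetal calf serum and a glucose concentration of 19.4 mM (2 arrays). They were set against cortical astrocytes from newborn C57BL6 mice, kept for 20 days in medium with 10% serum and 33 mM glucose (2 arrays). The days are those of the series description; the protocol text gives a single shorter period for all assays. Both media were basal medium Eagle with glutamine and antibiotics, and that of neurons also held insulin, transferrin, selenite, putrescine and progesterone. Cell type therefore changed together with age at dissection, medium and time in culture, and these cannot be told apart. The titles call the arrays biological replicates, without saying whether they came from separate litters, so the p-values measure the spread between these cultures.

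A G protein holds an alpha subunit, which binds GTP when a receptor activates it, and a beta-gamma pair, which is anchored in the membrane by a lipid on gamma and signals by itself. The alpha class decides the main effector: Gi/o subunits lower cyclic AMP, Gs and Golf raise it, Gq subunits activate phospholipase C beta and G12/13 subunits act on the cytoskeleton. RGS proteins speed up GTP hydrolysis by alpha and so shorten the signal. In cortex the Gi/o class serves many presynaptic receptors of neurons, and Gq-coupled receptors drive calcium signals in astrocytes.

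Signals are MAS5 values on a linear scale. Differences are log2 fold changes (neurons minus astrocytes) of signal plus an offset of 12.5, with standard error, from a limma fit over 25019 probe sets, and a gene was called at an adjusted p under 0.05. Background was the highest of 27 Bacillus subtilis control probe sets (21 and 23 in neurons, 17 and 15 in astrocytes). A fold against a culture with no array above it is given as "at least". The arrays correlated at 0.977 within neurons and 0.978 within astrocytes, against 0.827 to 0.834 between the groups (log2 values across probe sets). The listed neuron markers were higher in neurons in 10 of 10 cases, with a summed signal of 33662 to 33863 in neurons and 2948 to 3135 in astrocytes. Of 9 tested astrocyte markers, 6 were called towards astrocytes and 2 towards neurons, and the sum of all 10 was 8437 to 9739 in neurons and 17317 on both astrocyte arrays. In cultures of mixed cells, fewer cells of a type and less RNA per cell cannot be told apart.

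Most of the measured members differed between the cultures, more of them towards neurons than towards astrocytes. Of the 47 genes 38 passed the filter on dim values, and 9 did not. Of these 38, 30 were called in either direction, where the background over 12040 genes was 62.4%. In neurons 22 (57.9%) were higher, against a background of 31.1%, and 8 (21.1%) were higher in astrocytes, against a background of 31.2%. The median log2 fold change was 0.83 among these 38 and 0.02 over all genes tested. Called differences of at least 2-fold made up 63.2% of the 38 and 37.1% of all genes. The groups did not overlap in 34 of the 38 (89.5%), close to the background of 82.0%. Of the 38, 5 passed the filter through the neuron arrays alone and 4 through the astrocyte arrays alone, so such a gene was likely to differ. Among the 29 at or above the median on all 4 arrays, 17 were higher in neurons and 5 in astrocytes. The shares over all genes at or above the median on all 4 arrays were not computed, so these counts have no matched background. The 8 members called with a difference of at least 8-fold were Gng4, Rgs4, Gnal, Gng2, Gng3, Gnb4, Gnai1 and Gng13, all higher in neurons. Over all genes tested, 4.01% were called at least 8-fold higher in neurons and 2.72% at least 8-fold higher in astrocytes. Of these 8 members 4 (Gng4, Rgs4, Gnal and Gng13) passed the filter through the neuron arrays alone, so a difference towards neurons was likely for them.

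**Figure D1:**
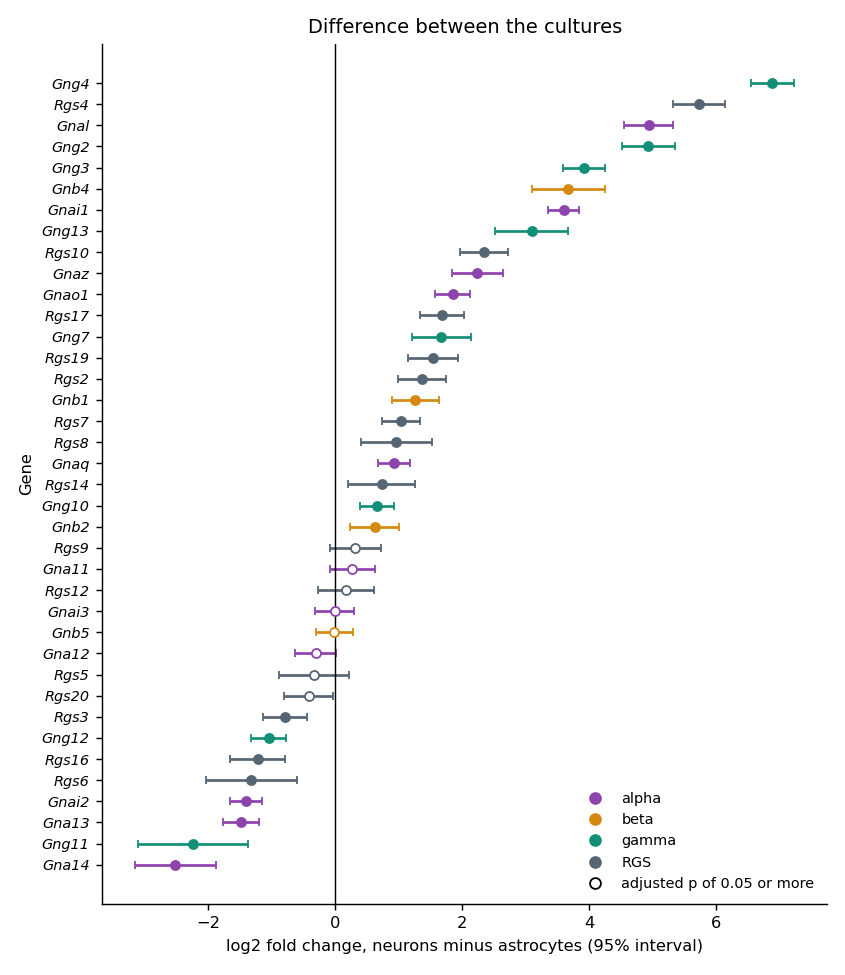
Log2 fold change (neurons minus astrocytes, x axis) of the 38 members that passed the filter (y axis), with 95% intervals from limma; colours mark the class and open points had an adjusted p of 0.05 or more. The offset shrinks the values of genes that are dim in a culture. Gng4 lies at 6.88 at the top and Gna14 at -2.52 at the bottom, and 22 filled points lie right of 0 against 8 to the left.

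The Gi/o alpha subunits differed in opposite directions. Gnai1 had signals of 4493 and 4533 in neurons, against 361 and 363 in astrocytes. The log2 fold change was 3.60 ± 0.11 (SE; adjusted p = 1.37e-07), a 12.1-fold excess in neurons, and the arrays of each group lay close together. Gnai2, a close relative that also inhibits adenylyl cyclase, had 836 and 803 in neurons, against 2134 and 2221 in astrocytes (log2 fold change -1.40 ± 0.11, adjusted p = 1.11e-05). Gnai3, the remaining member of this trio, had 1217 and 1548 in neurons and 1378 and 1386 in astrocytes. The groups overlapped, the adjusted p was 0.958, and the 95% interval of the log2 difference ran from -0.32 to 0.30. The same 3 genes thus gave a gene higher in neurons, a gene higher in astrocytes and a gene with no call.

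The other members of the class were higher in neurons. Gnao1, the Go alpha subunit that is abundant in brain, had 1443 and 1519 in neurons, against 389 and 417 in astrocytes (log2 fold change 1.85 ± 0.12, adjusted p = 3.74e-06). Gnaz, whose product resists pertussis toxin, had 388 and 359 in neurons, against 79 and 61 in astrocytes (log2 fold change 2.23 ± 0.18, adjusted p = 1.16e-05). In all, 3 of 5 Gi/o alpha genes were higher in neurons and 1 in astrocytes, beside 31.1% and 31.2% over all genes tested.

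Gnal encodes Golf alpha, which raises cyclic AMP in olfactory and striatal neurons and is a close relative of Gs alpha. It had 877 and 784 in neurons, against 16 and 14 in astrocytes, where both values were at or under background. The excess in neurons was at least 51.9-fold (adjusted p = 1.86e-07). A further kept probe set of Gnal gave a log2 fold change of 3.86. Gnas itself was high in both cultures, with 4823 and 4730 in neurons and 4106 and 4576 in astrocytes (log2 fold change 0.14, 95% interval -0.10 to 0.37, adjusted p = 0.276).

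Among the Gq subunits, Gnaq was higher in neurons and Gna14 in astrocytes. Gnaq had 2085 and 1909 in neurons, against 1026 and 1064 in astrocytes (log2 fold change 0.93 ± 0.11, adjusted p = 1.44e-04). Gna14 was dim in neurons, at 24 and 9, and had 149 and 147 in astrocytes (log2 fold change -2.52 ± 0.28, adjusted p = 8.40e-05). All 3 kept Gna14 probe sets were called in that direction, with log2 fold changes between -2.52 and -1.83. They were dim in neurons and passed the filter through the astrocyte arrays alone, so calls in that direction were likely. Gna11, which like Gnaq activates phospholipase C beta, had 1005 and 886 in neurons and 679 and 901 in astrocytes; the groups overlapped and the call was missed (adjusted p = 0.180). Its other probe set was called higher in neurons (0.56, adjusted p = 0.00866), as was the average of both (0.41, adjusted p = 0.0146). Gna15, known from blood cells, was at or under background on all 4 arrays.

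Of the G12/13 pair, Gna13 was higher in astrocytes, with 452 and 463 in neurons and 1387 and 1224 in astrocytes (log2 fold change -1.48 ± 0.12, adjusted p = 1.61e-05). Of its 6 kept probe sets 5 were called higher in astrocytes and 1 was not called, at 0.08. Gna12 had 289 and 268 in neurons and 359 and 337 in astrocytes, which missed the threshold by its main probe set (log2 fold change -0.31, adjusted p = 0.0892) and passed when its 3 probe sets were averaged (log2 fold change -0.51, adjusted p = 0.0190).

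**Figure D2:**
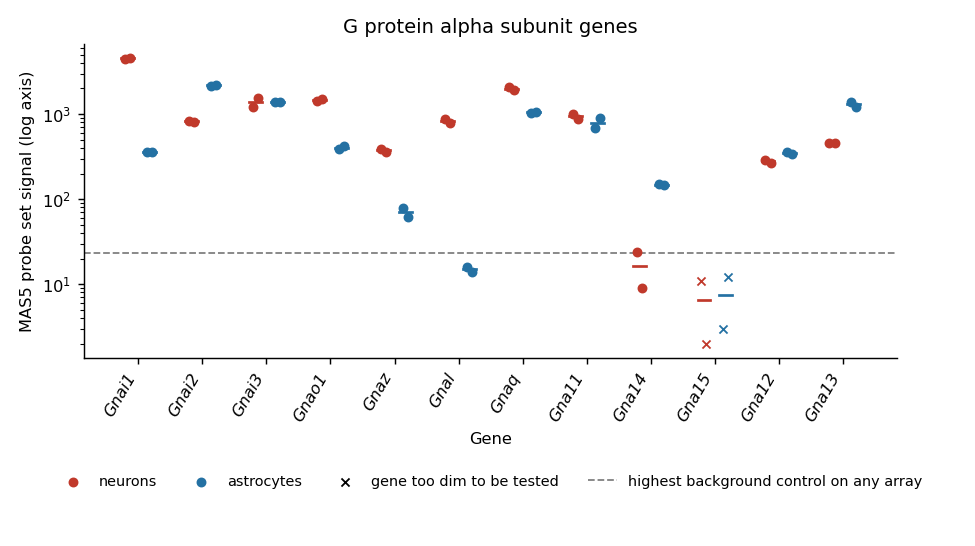
Signal of each G alpha gene (x axis) on a log axis (y axis): points are the 2 arrays of each culture, bars their mean, neurons left of astrocytes; crosses mark Gna15, too dim to be tested, and the dashed line the highest background control on any array, 23. Gnai1 and Gnal lie far higher in neurons, Gnai2, Gna13 and Gna14 lie higher in astrocytes, and Gnai3 overlaps.

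Gnaq and Gna14 are neighbours in the mouse genome and were called in opposite directions, and Gnai1 and Rgs4 were among the members with the largest excess in neurons. Their promoters are printed here from RefSeq (GRCm38.p6; 250 bases before to 50 after an annotated start), to show the starts of neighbours with opposite calls and of strong members. Capitals mark GGGCGG (a GC box), CCAAT and TATAAA on either strand; the motifs do not overlap in these windows. Whether these starts were used in the cultures was not measured.
Gnai1 (chr5:18360364-18360663, minus strand): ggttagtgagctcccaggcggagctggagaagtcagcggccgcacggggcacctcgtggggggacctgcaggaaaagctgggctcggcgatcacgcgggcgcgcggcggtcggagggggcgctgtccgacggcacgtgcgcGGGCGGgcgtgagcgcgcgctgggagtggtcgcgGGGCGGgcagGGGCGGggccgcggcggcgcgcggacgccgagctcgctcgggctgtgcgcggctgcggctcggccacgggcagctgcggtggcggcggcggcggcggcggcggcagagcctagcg
Gnaq (chr19:16132434-16132733, plus strand): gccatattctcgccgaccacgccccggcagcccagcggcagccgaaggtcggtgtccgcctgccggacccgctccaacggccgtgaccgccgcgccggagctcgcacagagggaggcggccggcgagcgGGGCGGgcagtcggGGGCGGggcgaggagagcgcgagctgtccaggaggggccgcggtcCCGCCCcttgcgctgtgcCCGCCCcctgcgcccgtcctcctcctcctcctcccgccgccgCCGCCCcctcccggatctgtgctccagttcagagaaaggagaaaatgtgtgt
Gna14 (chr19:16435417-16435716, plus strand): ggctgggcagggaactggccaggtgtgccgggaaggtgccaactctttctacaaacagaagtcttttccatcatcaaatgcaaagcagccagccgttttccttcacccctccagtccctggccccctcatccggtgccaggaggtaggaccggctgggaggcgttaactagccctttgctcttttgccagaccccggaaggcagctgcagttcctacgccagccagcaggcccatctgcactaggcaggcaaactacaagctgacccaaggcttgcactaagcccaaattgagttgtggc
Rgs4 (chr1:169747593-169747892, minus strand): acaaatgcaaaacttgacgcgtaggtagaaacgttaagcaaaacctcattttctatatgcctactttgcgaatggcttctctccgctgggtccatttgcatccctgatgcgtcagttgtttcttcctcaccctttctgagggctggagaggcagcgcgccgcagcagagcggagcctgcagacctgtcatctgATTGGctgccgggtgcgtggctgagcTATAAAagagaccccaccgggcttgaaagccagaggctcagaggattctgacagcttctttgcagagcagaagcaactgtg

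The Gnai1 window held 53 CpG dinucleotides and 3 GC boxes, and the Gnaq window 39 CpG and 5 GC boxes. The Gna14 window held 7 CpG, the median over all 32851 promoters of the same length (7.00), and none of the motifs. The Rgs4 window held 13 CpG with 1 TATAAA and 1 CCAAT. Over all promoters GGGCGG was found in 35.7%, CCAAT in 37.4% and TATAAA in 13.6%; among the 45 promoters of the 35 members with an entry, the numbers were 24, 12 and 6. A match describes letters only and says nothing of binding.

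By the gene order of the RefSeq table, 8 pairs of these genes are next to each other among protein-coding genes, and in 4 of them both genes were tested. Gnaq with Gna14 and Rgs8 with Rgs16 were called in opposite directions. Gna14 passed the filter through the astrocyte arrays alone and Rgs8 through the neuron arrays alone, so the direction of their calls was likely. How often neighbouring genes in general were called in opposite directions was not computed. In the Rgs4 and Rgs5 pair Rgs4 was higher in neurons and Rgs5 was not called, and in the Gna13 and Rgs9 pair Gna13 was higher in astrocytes and Rgs9 was not called.

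Of the 4 beta subunit genes tested, 3 were higher in neurons and 0 in astrocytes by limma (also 0 at an unadjusted p under 0.05). The shares over all genes tested were 31.1% and 31.2%, and so few genes do not describe a class. Gnb4 stood out in size, with 542 and 956 in neurons and 45 on both astrocyte arrays (log2 fold change 3.67 ± 0.25, adjusted p = 4.84e-06). All 3 of its probe sets were higher in neurons, and the neuron arrays differed from each other more than for Gnai1. Gnb2, which is widely expressed, had 2807 and 2023 in neurons and 1399 and 1714 in astrocytes (log2 fold change 0.62 ± 0.17, adjusted p = 0.0136). That call was lost without neurons replicate 1 (adjusted p = 0.182), astrocytes replicate 1 (0.216) or astrocytes replicate 2 (0.0953), with no filter on dim values (0.0794) and with no mean-variance trend (0.0512).

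Gnb1, the most studied beta subunit, depended on the probe set. Its brightest probe set had 2074 and 1819 in neurons and 686 and 939 in astrocytes (log2 fold change 1.26 ± 0.16, adjusted p = 2.04e-04). The next had 589 and 691 in neurons and 861 and 847 in astrocytes, called higher in astrocytes (log2 fold change -0.41 ± 0.13, adjusted p = 0.0234). Gnb1 was the only 1 of the 23 members with several kept probe sets whose probe sets were called in opposite directions; averaging them gave 0.42 (adjusted p = 0.0108). Which transcript each probe set reads was not tested.

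Gnb5 is the divergent beta subunit that pairs with the R7 group of RGS proteins. By its main probe set it did not pass the threshold, with 422 and 421 in neurons and 417 and 437 in astrocytes, and the 95% interval of the log2 difference ran from -0.31 to 0.28 (adjusted p = 0.918). A dim probe set gave 17 and 19 in neurons, under background, and 39 and 34 in astrocytes (adjusted p = 0.0396). Gnb3 was too dim to be tested.

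The gamma subunit genes were called in both directions. All 8 tested genes were called, 6 higher in neurons and 2 higher in astrocytes, against a background of 62.4% in either direction. Of these, 3 passed the filter through a single culture (Gng4 and Gng13 through neurons, Gng11 through astrocytes), so that a call was likely for them. Gng4 had 2697 and 2703 in neurons, against 12 and 9 in astrocytes, both under background, so the excess was at least 169-fold (adjusted p = 1.08e-07). This probe set is of the kind that can match several transcripts, and without that kind the log2 fold change of Gng4 was 3.78 instead of 6.88. The other Gng4 probe sets were also called higher in neurons. The next had 212 and 210 in neurons, against 1 and 7 in astrocytes, at least 13.2-fold higher, and the dimmest had 50 and 60 in neurons, against 23 and 14 in astrocytes (log2 fold change 1.13, adjusted p = 0.00507). Gng2, a common partner of beta subunits in brain, had 1705 and 1323 in neurons, against 43 and 32 in astrocytes (log2 fold change 4.93 ± 0.18, adjusted p = 2.62e-07), and its 4 probe sets ranged from 3.45 to 5.43. Gng3, a gamma subunit of neurons, had 1137 and 1013 in neurons, against 59 and 60 in astrocytes (log2 fold change 3.91 ± 0.15, adjusted p = 2.61e-07).

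The other gamma genes with a neuronal excess were dimmer or differed less. Gng13, first known from taste cells, had 166 and 124 in neurons, against 4 and 8 in astrocytes, at least 8.98-fold higher (adjusted p = 1.35e-05). No array of the astrocytes lay above background, and both arrays of the neurons did. Gng7, which pairs with Golf alpha in striatum, had 192 and 146 in neurons, against 44 on both astrocyte arrays (log2 fold change 1.67 ± 0.20, adjusted p = 1.50e-04). Gng10 had 1864 and 2084 in neurons and 1191 and 1309 in astrocytes (log2 fold change 0.65 ± 0.12, adjusted p = 0.00147), the smallest difference among the called gamma genes.

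Gng12 and Gng11 were higher in astrocytes. Gng12 had 457 and 469 in neurons, against 977 and 972 in astrocytes (log2 fold change -1.05 ± 0.12, adjusted p = 9.42e-05), and the replicates were close. Gng11, whose product carries a farnesyl anchor, had 14 and 55 in neurons, against 184 and 191 in astrocytes (log2 fold change -2.24 ± 0.38, adjusted p = 0.00109). The spread was on the neuron side, with a log2 fold change of -1.57 when neurons replicate 1 was left out and -2.92 when replicate 2 was. The call was lost without astrocytes replicate 1 (adjusted p = 0.0833) or 2 (0.0877). The photoreceptor subunit gene Gngt1 was under background on all 4 arrays, and Gngt2 and Gng8 were too dim to be tested. No probe set carried the symbol of Gng5 alone, so it was not analysed here.

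**Figure D3:**
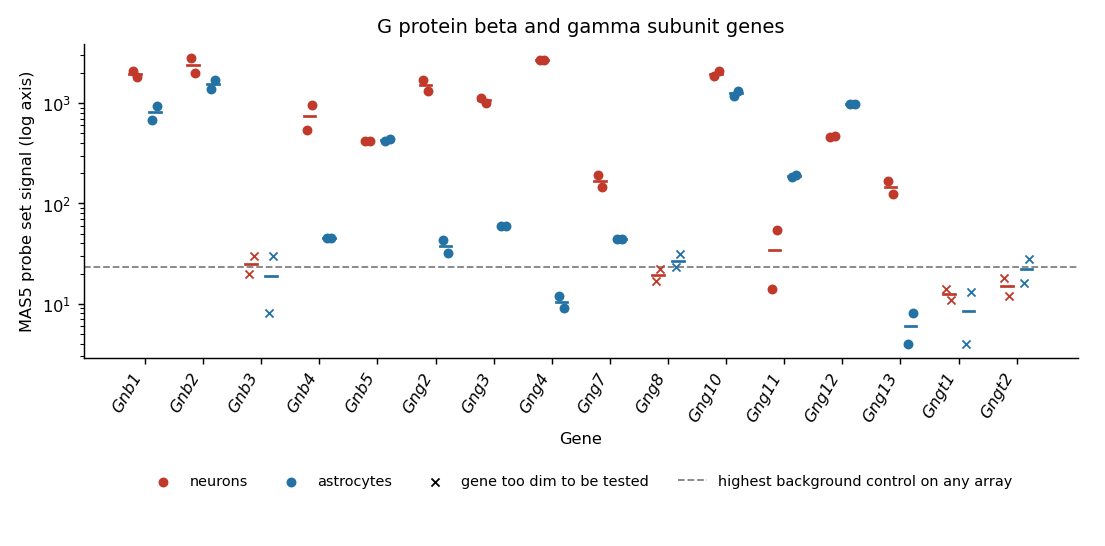
Signal of each G beta and G gamma gene (x axis) on a log axis (y axis): points are the 2 arrays of each culture, bars their mean, neurons left of astrocytes; crosses mark genes too dim to be tested and the dashed line the highest background control on any array. Gng2, Gng3, Gng4 and Gnb4 lie far higher in neurons, Gng11 and Gng12 higher in astrocytes, and the arrays of Gnb5 overlap.

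The RGS genes followed both directions, with 8 of 15 tested (53.3%) higher in neurons and 3 (20.0%) higher in astrocytes. Over all genes tested, these shares were 31.1% and 31.2%. In the R4 group of small RGS proteins, Rgs4 had 814 and 751 in neurons, against 3 and 2 in astrocytes, at least 49.0-fold higher (adjusted p = 1.56e-07). Its other probe sets were called the same way. The next had 538 and 619 in neurons, against 15 and 24 in astrocytes (log2 fold change 4.22), and the dimmest had 169 and 202 in neurons, against 7 and 10 in astrocytes, at least 11.6-fold higher. Rgs2, which acts on Gq alpha, had 632 and 483 in neurons, against 195 and 217 in astrocytes (log2 fold change 1.37 ± 0.17, adjusted p = 1.50e-04), and all 3 kept probe sets passed in that direction. Rgs8 had 84 and 74 in neurons and 43 and 27 in astrocytes (log2 fold change 0.96 ± 0.24, adjusted p = 0.00849). It passed the filter through the neuron arrays alone, so a call towards neurons was likely. The Rgs8 call was lost without neurons replicate 1 (adjusted p = 0.109), neurons replicate 2 (0.0799) or astrocytes replicate 2 (0.0770).

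Rgs16 and Rgs3 of the same group were higher in astrocytes. Rgs16 had 55 and 49 in neurons, against 134 and 141 in astrocytes (log2 fold change -1.22 ± 0.19, adjusted p = 5.92e-04). Rgs3 had 144 and 138 in neurons, against 241 and 265 in astrocytes (log2 fold change -0.79 ± 0.15, adjusted p = 0.00242), and its 3 kept probe sets were all called that way, down to -1.50. Rgs5, a marker of pericytes, was dim, with 22 and 27 in neurons and 36 and 32 in astrocytes (adjusted p = 0.271). Rgs1, Rgs13 and Rgs18 of this group did not pass the filter; Rgs13 had 80 and 33 in neurons and 1 and 3 in astrocytes, and was not tested.

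The R7 group, whose proteins are stabilised by Gnb5, was mixed. Rgs7 had 682 and 761 in neurons, against 337 and 355 in astrocytes (log2 fold change 1.03 ± 0.13, adjusted p = 1.96e-04). Rgs6 had 20 and 52 in neurons, against 106 and 98 in astrocytes (log2 fold change -1.32 ± 0.32, adjusted p = 0.00676), so within this group these genes were called in opposite directions. Rgs6 passed the filter through the astrocyte arrays alone, so a call towards astrocytes was likely. The Rgs6 call was lost without astrocytes replicate 1 (adjusted p = 0.146) or 2 (0.128) and without the filter (0.0533), and the size moved to -0.83 when neurons replicate 1 was left out and to -1.82 when replicate 2 was. Rgs9, known from striatum and retina, had 136 and 117 in neurons and 99 on both astrocyte arrays (adjusted p = 0.163), and Rgs11 was too dim to be tested. Rgs7bp, which anchors R7 proteins at the membrane, had 540 and 355 in neurons, against 35 and 19 in astrocytes (log2 fold change 3.54 ± 0.27, adjusted p = 8.74e-06).

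Of the RZ group, which acts on Gz and Gi alpha, 2 of 3 genes were higher in neurons, beside 31.1% over all genes tested. Rgs17 had 445 and 404 in neurons, against 127 and 120 in astrocytes (log2 fold change 1.68 ± 0.15, adjusted p = 2.29e-05), and Rgs19 had 334 and 316 in neurons, against 118 and 91 in astrocytes (log2 fold change 1.54 ± 0.17, adjusted p = 9.67e-05). Rgs20 had 281 and 246 in neurons and 311 and 404 in astrocytes, without overlap, but missed the threshold (log2 fold change -0.41 ± 0.17, adjusted p = 0.0647). Its other kept probe sets were not called either and differed in sign, at -0.09 and 0.34. Averaging the probe sets gave -0.05 (adjusted p = 0.816). Gnaz, an alpha subunit on which this group acts, was itself 4.70-fold higher in neurons.

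In the R12 group Rgs10 had 334 and 318 in neurons, against 52 and 57 in astrocytes (log2 fold change 2.34 ± 0.17, adjusted p = 6.21e-06). Rgs10 is known from both neurons and microglia, the macrophages of brain. Of the 12 listed microglia markers 6 of 7 tested were higher in astrocyte cultures, with a summed signal of 162 to 231 in neurons and 949 to 978 in astrocytes, and 7 of the 12 were at or under background in neurons, C1qa among them. The part of microglia in the Rgs10 signal was not tested. Rgs1 and Rgs18, R4 genes of immune cells, did not pass the filter; Rgs1 had 7 and 11 in neurons and 19 and 8 in astrocytes, and Rgs18 was at or under background on all arrays. Rgs14, a multidomain RGS protein, had 113 and 76 in neurons and 48 and 54 in astrocytes (adjusted p = 0.0247), a call lost without neurons replicate 1 (adjusted p = 0.133), astrocytes replicate 1 (0.180) or 2 (0.132) and without the filter (0.0805). Rgs12 had 116 and 119 in neurons and 90 and 118 in astrocytes (adjusted p = 0.484).

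**Figure D4:**
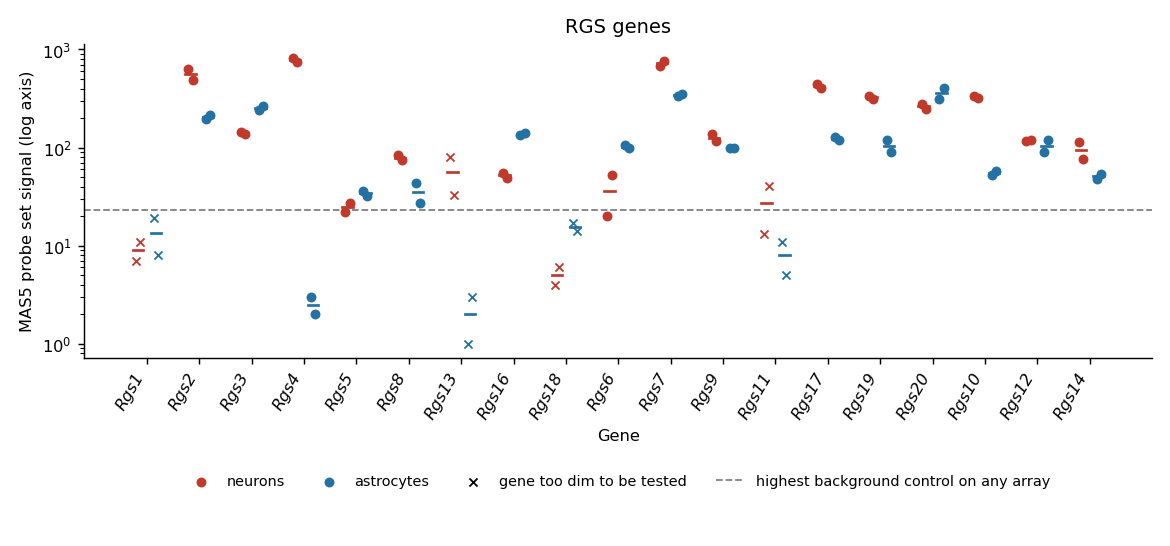
Signal of each RGS gene (x axis, in the order R4, R7, RZ and R12) on a log axis (y axis): points are the 2 arrays of each culture, bars their mean, neurons left of astrocytes; crosses mark genes too dim to be tested and the dashed line the highest background control on any array. Rgs4 shows the widest gap, with 814 and 751 in neurons against 3 and 2 in astrocytes, and Rgs3, Rgs16 and Rgs6 lie higher in astrocytes.

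The marker lists of other cells differed in direction. The 9 mural cell markers summed to 356 on neurons replicate 1 and 728 on replicate 2, and to 8026 and 8807 in astrocytes; 3 of 6 tested were higher in astrocytes and 1 in neurons, while Abcc9 was at or under background on all arrays. The 8 fibroblast and meningeal markers summed to 1703 to 1840 in neurons and 4029 to 4249 in astrocytes. Of these 8, 5 were higher in astrocytes and 2 in neurons, with Foxc1 under background in neurons. Most of the neuron sums came from Pdgfra (1177 and 1302), which is also in the oligodendrocyte list. Of the 9 endothelial markers 1 was tested and not called, and the sums were 133 to 174 in neurons and 150 to 185 in astrocytes. Of 7 tested markers of the oligodendrocyte lineage, 4 were called towards neurons and 2 towards astrocytes, with Mog and Mag at or under background on all arrays. The sums were 4933 to 5705 in neurons and 5550 to 6140 in astrocytes. Most of the astrocyte sums came from the 2 genes called towards astrocytes, Olig1 (3500 and 3997) and Cnp (1344 and 1536). Pdgfra had 19 and 21 there, and Mbp 16 on both arrays. Interneuron markers were higher in neurons in 7 of 8 cases, with sums of 4961 to 5046 in neurons and 862 to 1166 in astrocytes. Most of the astrocyte sums came from Npy (710 and 1012), the only marker of that list called towards astrocytes. All 4 tested ependymal markers were higher in astrocytes (sums of 177 to 197 in neurons and 1153 to 1285 in astrocytes). The part of these cells in the differences of the G protein and RGS genes was not tested.

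All kept probe sets were called in a single direction in 15 of the 23 genes that had several. Gnb1 alone had opposed calls, and each of the remaining genes had at least 1 probe set that was not called. The share over all genes with several kept probe sets was not computed.

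**Figure D5:**
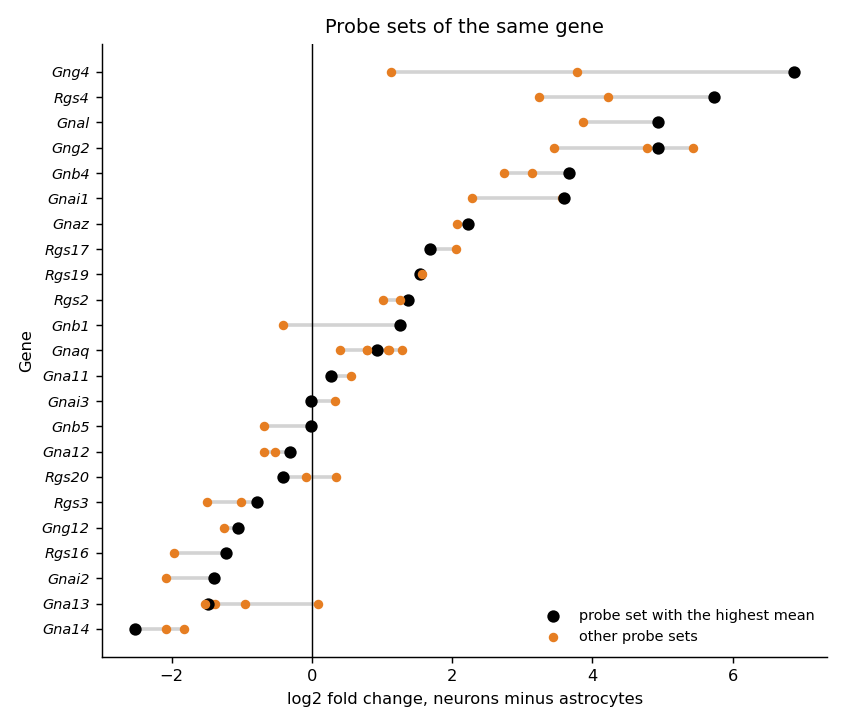
Log2 fold change (neurons minus astrocytes, x axis) of every kept probe set of the 23 genes with more than 1 (y axis); black points are the probe set that stands for the gene and orange points the others. The points of Gnb1 lie on both sides of 0, at 1.26 and -0.41, and those of Gng4 all lie right of 0, where its larger values are set against astrocyte signals under background.

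Partners and effectors of G proteins were called about as often as other genes. Of 31 listed genes 24 were tested, and calls were made towards neurons in 10 (41.7%) and towards astrocytes in 6 (25%), against 31.1% and 31.2% over all genes tested, with a median log2 fold change of 0.28 beside 0.02 over all. Kcnj3, a potassium channel subunit opened by beta-gamma, had 326 and 281 in neurons, against 2 and 9 in astrocytes, at least 19.0-fold higher (adjusted p = 2.33e-06). The other leading gene was Rgs7bp, given above. Higher in astrocytes was the receptor kinase gene Grk4, with 20 and 30 in neurons, against 103 and 111 in astrocytes (adjusted p = 2.78e-04). Of the called genes, Kcnj3 and Kcnj9 were at or under background on both astrocyte arrays. Rgs7bp and Rap1gap were also dim there, as was Grk4 in neurons. Genes this dim in a culture passed the filter mainly through the other, so a call towards it was likely. Plcb3, a phospholipase C beta activated by Gq alpha, had 38 and 42 in neurons and 116 and 153 in astrocytes (log2 fold change -1.47 ± 0.21, adjusted p = 4.00e-04). Named after their values were seen, its relative Plcb1 was higher in neurons (1128 and 1320 in neurons, against 234 and 236 in astrocytes; log2 fold change 2.32 ± 0.13, adjusted p = 2.05e-06) and Plcb4 did not pass (334 and 280 in neurons, 299 and 284 in astrocytes, adjusted p = 0.728). Without neurons replicate 1 or without astrocytes replicate 1, 3 of the 6 calls towards astrocytes remained.

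Of the receptors that couple to these proteins, more were called higher in neurons than in astrocytes. Of 32 Gi/o-coupled receptor genes 16 were tested, and 11 (68.8%) were higher in neurons and 1 (6.25%) in astrocytes, against 31.1% and 31.2% over all genes tested; the median log2 fold change was 1.73. Cnr1, the cannabinoid receptor gene, had 2002 and 1889 in neurons, against 40 and 33 in astrocytes (log2 fold change 5.32 ± 0.15, adjusted p = 1.27e-07), and the glutamate receptor gene Grm7 had 827 and 563 in neurons, against 25 and 27 in astrocytes (log2 fold change 4.17 ± 0.21, adjusted p = 9.89e-07). The gene higher in astrocytes was Cxcr4, a chemokine receptor, with 7 on both neuron arrays and 67 and 66 in astrocytes, at least 3.03-fold (adjusted p = 1.26e-04). Of the genes called higher in neurons, Grm2, Htr1a and Oprl1 were at or under background on both astrocyte arrays. Grm4, Grm7, Grm8, Npy1r and Sstr4 were also dim there, as was Cxcr4 in neurons. Genes this dim in a culture passed the filter mainly through the other, so a call towards it was likely. Of 25 Gq-coupled receptor genes 9 were tested, 6 (66.7%) higher in neurons and 2 (22.2%) in astrocytes, beside the same background, with a median log2 fold change of 0.88. Grm5 had 1210 and 1206 in neurons, against 7 and 6 in astrocytes, and the serotonin receptor gene Htr2c had 291 and 233 in neurons, against 2 and 8 in astrocytes; they were at least 75.6-fold and 16.3-fold higher in neurons (adjusted p = 1.21e-07 and 3.09e-06). F2r, the thrombin receptor gene, had 825 and 985 in neurons, against 3466 and 3656 in astrocytes (log2 fold change -1.97 ± 0.12, adjusted p = 3.02e-06). P2ry1, a receptor for ADP, had 2 on both neuron arrays and 61 and 54 in astrocytes, at least 2.61-fold (adjusted p = 9.48e-05). Grm5, Htr2c and Ntsr1 were at or under background on both astrocyte arrays, Hrh1 was dim there, and P2ry1 was under background in neurons. By the filter, a call was likely for these genes as well. Without astrocytes replicate 1, 3 of the 6 Gq-coupled receptor calls towards neurons remained. Most receptor genes left untested were too dim, so these counts describe the measured part of each list.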

How the data were processed

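The deposited values are linear intensity summaries per probe set; MAS5 is the tool named in the submitters' processing notes, with no version stated. Per the labels' protocols, 50 ng of RNA went through repeated cDNA synthesis before hybridisation to Affymetrix arrays. Control probe sets were left out. Among 45037 probe sets, a single gene symbol was given for 34945, several for 932 and no symbol for 9160; names were updated by Entrez identifier for 34741. Values were kept as scaled and transformed to log2(value + 12.5), the offset being the median of the arrays' 25th percentiles. Probe sets at or above the array median on at least 2 of 4 arrays were kept (25019), and the brightest kept probe set by mean stood for a gene (12040 genes). Fold changes on this scale understate those of dim genes.

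The cultures were compared by two-sided moderated tests (lmFit and eBayes of limma 3.58.1, R 4.3.3, with a trend of variance on mean), adjusted by Benjamini-Hochberg over all kept probe sets, with 2 residual and 6.27 prior degrees of freedom. Every adjusted p is from limma. Precision is limited by the small number of arrays, with a median standard error of 0.20. On simulated data over 25019 probe sets, 44.0% of 2-fold and 94.0% of 4-fold changes were recovered. Only a very small part of the probe sets was changed there, whereas 62.4% of genes were called here. Adjustment was therefore stricter in the simulation, and its shares do not give the part of real differences that was missed. "At least" folds were computed from the log2 signals without the offset, against each array's background.

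Every member is accounted for by class. The 8 largest called differences in each direction are given on every array, and from each list the 2 largest in each direction with the highest-mean member. The members, lists and tests were chosen with earlier results of these data known. The labels do not say whether the replicate numbers pair the arrays, and the main fit did not pair them. The summed signal of 1 marker list is not reported here.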

Additional observations from a re-analysis of the deposited data

How the results depend on the processing

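Of 30 called members, 25 kept direction and call under every alternative in which they had a value; the exceptions were Gnb2, Gng11, Rgs6, Rgs8 and Rgs14, described above. The alternatives were other offsets and filters, quantile normalization, no mean-variance trend, averaged probe sets, no probe sets matching several transcripts, a replicate block and each array left out. With 1 array left out, 19 to 21 members were higher in neurons and 6 to 8 in astrocytes; the lone array of a group was then taken to vary like the other group. The numbers are shared without a stated pairing (correlation of same-numbered deviations -0.0901), and the replicate block left the counts at 22 and 8. Without the probe sets that match several transcripts, 19 members were higher in neurons, since Gnao1, Rgs14 and Rgs19 then had no tested probe set. In that setting 5 members were higher in astrocytes, since Gnai2, Rgs16 and Rgs3 had none either. So was 1 Gq-coupled receptor gene, F2r being untested. Uncalled genes changed sign: Gnai3 was at 0.16 with probe sets averaged, 0.07 with quantile normalization and between -0.18 and 0.16 with 1 array left out, Gnb5 between -0.05 and 0.02 and Rgs12 between -0.01 and 0.34 with 1 array left out.

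The filter at the 75th percentile left fewer genes tested, and with it 6 Gi/o-coupled and 3 Gq-coupled receptor genes were higher in neurons. In astrocytes it left 0 Gi/o-coupled genes by limma (also 0 at an unadjusted p under 0.05), since Cxcr4 was not tested, and 1 Gq-coupled gene. Quantile normalization gave 2 Gi/o-coupled genes higher in astrocytes, Sstr2 being added; the cause was not tested. With 1 array left out, 3 to 4 partner genes were higher in astrocytes, and 3 to 4 Gq-coupled receptor genes in neurons. No alternative moved the median log2 fold change of all genes by over 0.1. Dim signals, not above background in a group, limit the folds of Gng4, Rgs4, Gnal and Gng13 to lower bounds.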
